A study of Mus musculus with 2 samples.

Results

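The authors sequenced long reads of adrenal gland RNA and sorted them into transcript models. The mice were B6CASTF1/J males, the F1 hybrid that C57BL/6J and CAST/EiJ parents give, and were 36 days old. There was 1 group with 2 libraries, here replicate 1 and replicate 2, without a treatment or another condition, so the comparisons below are between the libraries and between classes of model. The labels disagree on whether the libraries came from 1 animal or from separate animals, so the spread between them may be technical. The models described here are incomplete splice matches of the Prefix subtype, which follow an annotated or unannotated transcript from its first intron onward but do not use its last intron or introns. All rows with the class ISM (incomplete splice match) and the subtype Prefix were taken, 3966 models among 130009 endogenous models with reads: 1968 in replicate 1 and 1998 in replicate 2.

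A messenger RNA normally ends where cleavage and polyadenylation factors cut it, a short way after a signal such as AATAAA. When such a signal inside an intron is used before the intron has been spliced, the RNA ends early and can encode a shortened protein; U1 snRNP, the particle that marks the start of introns, is known to hold such early cuts back. A second known source of a transcript without its last splice is an intron that stays in the RNA, and another is cDNA priming, in which the oligo(dT) primer can anneal to a run of A inside an RNA instead of the poly(A) tail. The deposited models carry the coordinates of an end and a read count, and these sources cannot be told apart from an end alone.

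The 5 ends below are shown for the bases next to them, with 16 A of 20 after the Son end and 6 to 12 A of 20 before the other 4. They are leading intron chains that end within the matched exon and inside the coding region of the parent, read on the transcript strand from the GENCODE M21 transcripts (mm10). For Son the capitals mark the 20 bases that follow the 3' end recorded in replicate 1. For the other 4 the recorded end is the last base of the exon, and the capitals mark the last 20 bases of that exon. The bases after these 4 ends were not read, so the Son count is not a like measure to theirs.
Son, chr16:91654650-91654729, plus strand, exon 3: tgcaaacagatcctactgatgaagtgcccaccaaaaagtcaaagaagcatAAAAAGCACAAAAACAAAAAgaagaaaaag
Sec62, chr3:30809997-30810026, plus strand, exon 4: aaagatggtgAAAAGGAAGATTCCAAAAAG
Eif5b, chr1:38021782-38021811, plus strand, exon 5: gaggagcttgAAGCCAAACGAAAAGAAGAG
Plin1, chr7:79723251-79723280, minus strand, exon 6: tccgaggctgAGGAGAACGTGCTCAGAGAG
Abcb1b, chr5:8810586-8810615, plus strand, exon 5: caacagcagtCTGGAGGAAGAGATGGCCAT
The capitals hold 16 A in Son, 12 in Sec62, 12 in Eif5b, 7 in Plin1 and 6 in Abcb1b.

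Prefix models were a small and thinly read class. They held 3207 of 452489 endogenous reads in replicate 1 and 3189 of 463210 in replicate 2, or 0.699% ± 0.014 of endogenous reads (SD, n = 2), and 8.57% ± 0.59 of ISM reads. Suffix models, the mirror class that lacks the 5' part, held 23284 and 24599 reads, 7.26 and 7.71 times as many. In the 2 libraries 1594 and 1646 of the Prefix models, 81.0% and 82.4%, rested on 1 read, and 28 models in each had 10 reads or more. The adrenal label held: Cyp11a1 had 12394 and 10862 reads over all its models, Star 5066 and 3475, and the chromaffin gene Chga 1784 and 2785.

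The name of the class was borne out only in part when each model was set on an annotated parent. The parent was an annotated transcript of the same gene whose first introns were the model's whole intron chain, and the parent's exon that follows the last intron of that chain is called the matched exon. An end up to 10 bases past that exon counted as exonic. In replicate 1, 29.9% of Prefix reads (Wilson 95% interval 28.3 to 31.5) were in models that ended in the matched exon, 26.3% (24.9 to 27.9) in models that ended in the next intron, and 31.4% (29.8 to 33.0) in models that ran unspliced through at least 1 whole intron. The remaining 12.4% (11.3 to 13.6) were in models with no annotated parent. In replicate 2 the same 4 shares were 32.5% (30.9 to 34.2), 28.6% (27.0 to 30.2), 25.5% (24.0 to 27.1) and 13.4% (12.2 to 14.6). Intervals cover counting error only, since without molecular identifiers amplified reads need not stand for separate molecules. Among reads with an annotated parent, 64.2% ± 2.5 (SD, n = 2) were in models that ended past the matched exon, and 31.5% had the end itself inside the next intron. Models that ended within 50 bases of the parent's own 3' end made up 17.9% of Prefix reads in replicate 1 and 14.7% in replicate 2. These lack a splice and not a 3' part.

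**Figure D1:**
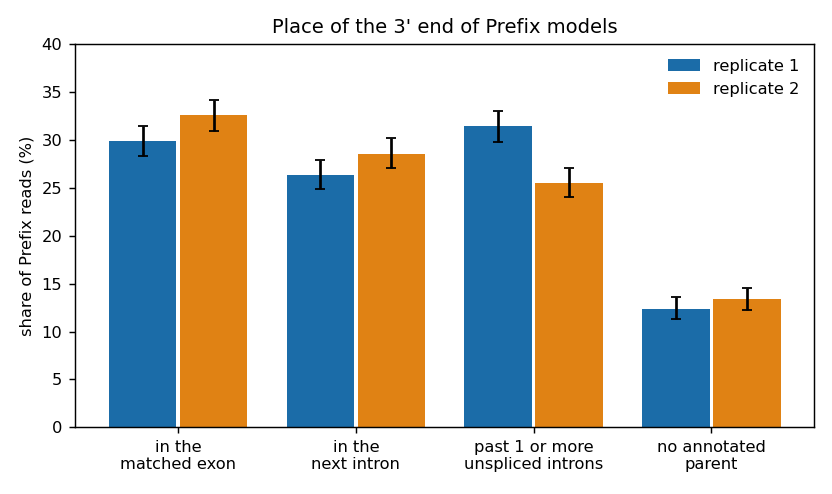
Share of Prefix reads (vertical axis, %) by the place of the model's 3' end on its annotated parent (horizontal axis), with 1 bar per library and Wilson 95% intervals as error bars. The first 3 classes each hold between 25.5% and 32.5% of reads, and models with no annotated parent hold 12.4% and 13.4%.

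The recorded ends were often not free positions. Of the 632 and 696 models that ended in the matched exon, 473 and 531 ended at exactly the last base of that exon, 74.8% and 76.3%. Suffix models showed the same at their other side: of those whose 5' end lay in the matched exon, 73.4% and 74.4% began at exactly its first base. Over all Prefix reads, 46.1% ± 4.3 (SD, n = 2) were in models ending within 50 bases of some annotated 3' end of the gene, and nearly all of these matches were exact: in introns all 204 such models of replicate 1 and all 217 of replicate 2 sat at a distance of 0. The files give 1 end per model whatever its number of reads. They do not show whether each read stopped at that base or whether the end was set to an annotated position, so an end at an exon edge or an annotated end is less informative than one elsewhere. Ends in neither kind of position were found in 58 and 61 exonic models, 344 and 381 intronic models and 114 and 117 models that ran through an intron.

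**Figure D2:**
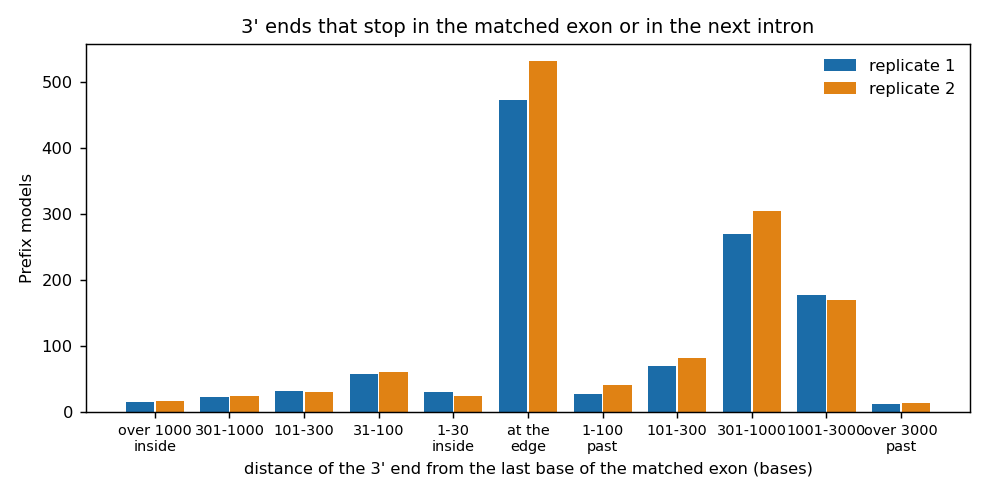
Number of Prefix models (vertical axis) by the distance of the 3' end from the last base of the matched exon (horizontal axis, in bases, unequal bins), inside the exon on the left and past it on the right, with 1 bar per library. The tallest bars are the 473 and 531 models that end at exactly the edge of the exon.

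Models ending in the next intron stopped mostly within 1000 bases of the exon. The median distance past the exon was 672 bases in replicate 1 and 611 in replicate 2, with quartiles of 372 to 1198 and 352 to 1158, and 65.7% and 69.4% of these models ended within 1000 bases. The introns they entered were long: the median length was 2966 bases over 542 introns in replicate 1 and 3150 bases over 587 introns in replicate 2, against 1451 and 1413 bases for the other introns of the same parents. Only 2.77% and 3.75% of the entered introns were shorter than 500 bases, against 23.1% and 23.4% of the other introns. A long intron offers more bases in which to end, and no correction was made for this. Where the parent codes for a protein, 95.1% and 95.6% of the reads had their end between the parent's start and stop codons, and a median of 48.4% and 51.9% of the coding bases lay before the end. An annotated transcript with the same last intron and an end within 50 bases was found for 26.1% and 24.7% of these models, so their last exon is annotated.

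Models that ran through introns kept short ones. Length enters the definition here, since an end at a given distance past the exon falls inside a long intron and beyond a short one. The kept introns had a median of 347 bases over 732 introns in replicate 1 and 365 bases over 609 in replicate 2, against 866 and 833 bases for the other introns of the same parents. In reads, 79.9% and 83.5% kept 1 intron, and 62.4% and 65.2% kept only the last intron of the parent. Of their reads, 81.4% and 81.1% were in models ending within 50 bases of an annotated 3' end of the gene, and 57.1% and 57.6% in models ending within 50 bases of the parent's own end. With coding parents, 82.0% and 79.8% of the reads ended 3' of the stop codon.

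**Figure D3:**
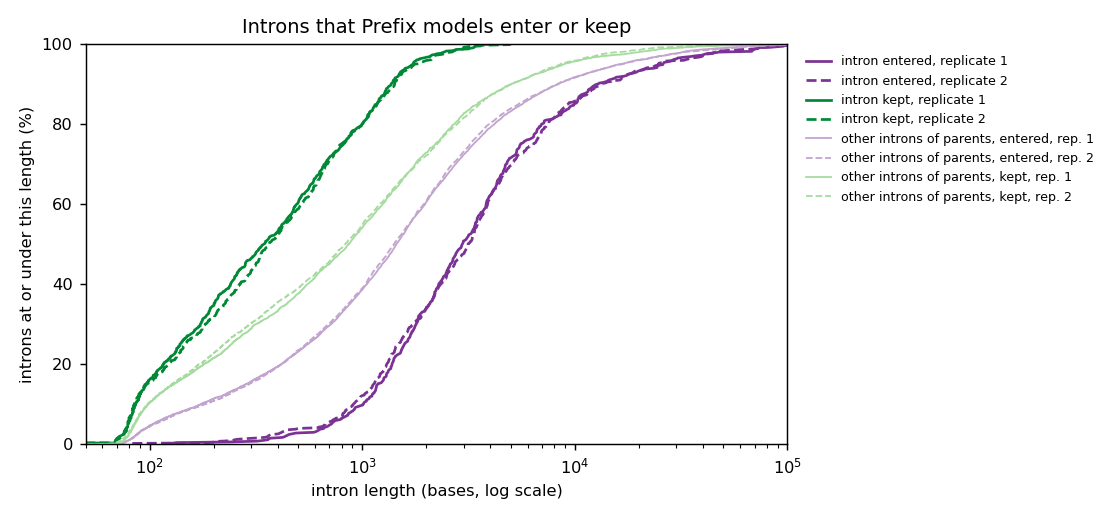
Cumulative share of introns (vertical axis, %) by length (horizontal axis, bases, log scale) for introns that Prefix models enter and end in, introns that they keep whole, and the remaining introns of the same parents, with solid lines for replicate 1 and dashed lines for replicate 2. Entered introns lie to the right of the other introns (medians 2966 and 3150 bases against 1451 and 1413) and kept introns to the left of them (347 and 365 against 866 and 833).

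The bases at the recorded ends differed between the classes of model, as did the positions of those ends. AATAAA or ATTAAA on the transcript strand within the last 50 bases was found at 74.6% and 72.9% of the reads of run-through models, in replicates 1 and 2, and at 7.09% and 9.01% of the reads of exonic models. Suffix models had it at 83.3% and 84.3% of reads and Known spliced transcripts at 82.0% and 81.6%. Counted as models, the shares lay closer: 77.0% and 72.6% for run-through, 78.0% and 78.3% for Suffix and 71.6% and 71.9% for Known. In reads, the run-through minus Suffix difference was -8.66 percentage points in replicate 1 (Newcombe 95% interval -11.6 to -5.88) and -11.5 points in replicate 2 (-14.9 to -8.27). The exonic minus Suffix difference was -76.2 points (-77.8 to -74.2) and -75.3 points (-77.0 to -73.3). These intervals treat reads of the same model as independent. Exonic ends lay mostly at an exon edge (68.6% and 70.3% of their reads), whereas 81.4% and 81.1% of run-through reads and 87.3% and 90.4% of Suffix reads ended near an annotated 3' end, so the contrast cannot be told apart from these positions. Run-through ends within 50 bases of an annotated 3' end had a hexamer at 78.6% and 76.4% of reads, and those elsewhere at 36.5% (Wilson 27.0 to 47.1, 85 reads) and 33.3% (22.5 to 46.3, 57 reads). In the matched exons of exonic ends, 3.71% of all windows of 50 bases hold one of the 2 hexamers. No such share was taken for the sequence around run-through ends. These shares are over ends whose 50 bases are covered by annotated transcripts, 87.8% and 83.7% of run-through models and 94.0% and 94.1% of exonic ones. Coverage was uneven: 442 of 445 and 364 of 375 run-through models near an annotated 3' end could be read. Elsewhere only 49 of 114 and 48 of 117 could, so the combined run-through shares lean to annotated ends. The same could not be asked of intronic ends, because annotated transcripts cover the 50 bases before the end in only 44.5% and 42.1% of them and no genome was used.

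Exonic ends that stopped at least 20 bases inside the exon were often followed by A. In replicate 1, 124 of 271 reads, 45.8% (Wilson 39.9 to 51.7), and in replicate 2, 114 of 278 reads, 41.0% (35.4 to 46.9), were in models whose next 20 bases held 12 A or more. Counted as models these were 35 of 134 and 34 of 138, and without Son 33.5% and 28.4% of the reads remained A-rich. Of 257089 windows of 20 bases in the matched exons, 2.98% held as many A. These windows were taken at every position. The ends were not spread in that way: only 58 and 61 exonic models in all ended at neither an exon edge nor within 50 bases of an annotated 3' end. Most of the 134 and 138 ends were therefore recorded near an annotated 3' end, so the 2 shares are not like measures. At ends on the exon edge, the last 20 exon bases held 12 A or more in 5.71% and 4.71% of models and for 11.3% and 8.49% of their reads, a feature looked at after the Sec62 and Eif5b sequences had been seen. Whether priming at these runs made the ends was not tested.

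Son, at chr16:91647506-91679221, encodes a protein of nuclear speckles that is needed for splicing. Prefix models held 50 of its 54 spliced reads in replicate 1 and 50 of 58 in replicate 2, or 92.6% (82.4 to 97.1) and 86.2% (75.1 to 92.8). All but 1 of these reads followed a single chain of 3 exons that stopped in exon 3, 5881 bases before the end of that exon in replicate 1 and 5872 bases in replicate 2. The replicate 1 end is just ahead of the capitals printed above, and the replicate 2 end is 9 bases further on, inside them. Less than 5% of the coding bases lay before these ends (4.78% and 4.91%), and the nearest annotated 3' end was 9334 bases from the replicate 1 end. Psmd1, a subunit of the regulatory cap of the proteasome, had 26 Prefix reads of 49 in replicate 1 and 11 of 49 in replicate 2. Its leading chain of 22 exons, with 23 and 9 reads, ended inside its matched exon. The higher share in replicate 1 did not pass the test between libraries (two-sided Fisher's exact test, Benjamini-Hochberg adjusted p = 0.37). Sec62, which helps move proteins into the endoplasmic reticulum, had 33 of 93 and 25 of 68 spliced reads in 1 Prefix model that ended at the edge of exon 4. Ccnl2, a cyclin of nuclear speckles, had 17 and 32 reads in a chain of 6 exons that stopped 1764 bases inside exon 6 of a noncoding parent, where 5 of the next 20 bases were A. Eif5b, a GTPase of translation initiation, had 12 of 20 spliced reads in replicate 1 and 6 of 16 in replicate 2 in a chain that ended at the edge of exon 5. Plin1, the perilipin that coats the fat droplet of fat cells, had 30 of 132 and 55 of 159 reads in Prefix models, and its 2 leading chains shared 1 end at chr7:79723251, so they are not independent ends.

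Abcb1b, a P-glycoprotein that pumps steroids and drugs out of cells, had the most Prefix reads of any gene, 110 of 794 spliced reads in replicate 1 and 115 of 810 in replicate 2. The shares of 13.9% (11.6 to 16.4) and 14.2% (11.96 to 16.8) differed by less than their counting error. Its leading models shared the first exon and stopped at a ladder of places early in the gene (chr5:8798147-8866315, parent of 28 exons). The first step, with 39 and 36 reads, was an end in intron 2, 1006 bases past exon 2, at chr5:8799812 in both libraries. It lay 13839 bases from any annotated 3' end and before all but 1.70% of the coding bases. A further step was a chain of 4 exons with 26 and 33 reads, recorded as ending at the edge of exon 4 in replicate 1 and 987 bases into the next intron in replicate 2. The next was the exon 5 edge printed above, with 8 and 14 reads. The last of these, with 24 and 19 reads, ran through the next intron after 6 exons and ended at the annotated end of another Abcb1b transcript. Abcb1b has a close paralog, Abcb1a, and the sources used here do not say how reads of the 2 genes were kept apart.

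The steroid pathway gave the most reads of the gene lists examined. Star, which brings cholesterol to the inner mitochondrial membrane, had 59 of 5048 spliced reads in replicate 1 and 33 of 3084 in replicate 2 in Prefix models, 1.17% and 1.07%. Its main chain had 42 and 32 reads, kept all introns but the last spliced, and ended at chr8:25812423 in intron 6, 540 bases past exon 6, in both libraries. That base is 1202 bases from the nearest annotated 3' end, and 87.0% of the coding bases lie before it. In replicate 1 other Star models that had lost more splices, with 7, 5 and 4 reads, were recorded with the same end, while replicate 2 held none of them. Cyp11a1, the enzyme that cuts the side chain of cholesterol, had 77 Prefix reads of 6249 in replicate 1 and 32 of 4562 in replicate 2. One of its chains, with 26 and 14 reads, ended 967 bases into intron 2. Another, with 23 and 9 reads, ran through the last 2 introns to the annotated end. Cyp11b1, which makes the last step to corticosterone, had 22 and 17 reads in a chain that kept the last intron, with recorded ends 3322 bases apart in the 2 libraries. The replicate 1 end lay 746 bases before the parent's own end and the replicate 2 end lay beyond it. Srd5a2, a steroid 5-alpha-reductase, had 37 of 1404 and 56 of 1323 reads, of which 21 and 38 were in 1 chain of 4 exons with no annotated parent. That chain ended beyond the annotated end of the gene, 2064 bases from the nearest annotated 3' end in replicate 1. Of the list's Prefix reads, 131 of 305 in replicate 1 and 79 of 178 in replicate 2 were in models with no annotated parent. Cyp21a1 gave 51 and 15 of these. Over all Prefix reads such models held 12.4% and 13.4%. Over the list, 14 of the 19 members with at least 20 spliced reads had a Prefix read, their median share was 0.275% and the pooled share was 0.834%. Over all 5657 genes with that many reads, 1585 had a Prefix read (28.0%), the median share was 0 and the pooled share over all genes was 0.782%. Detection grows with depth, from 23.1% of genes with 20 to 49 spliced reads to 47.8% of genes with 500 or more. The pooled share fell over the same bins, from 1.54% to 0.366%. The steroid genes are among the deepest, so the list's pooled share of 0.834% lay above that of genes of like depth.

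**Figure D4:**
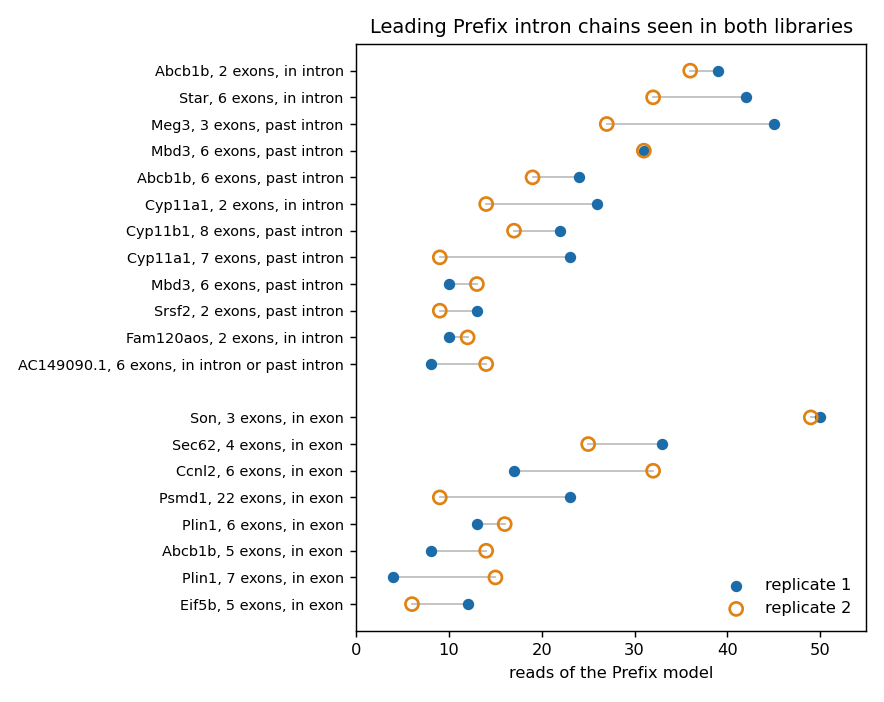
Reads of the leading Prefix chains (horizontal axis) in replicate 1 (filled) and replicate 2 (open), for 12 chains that end past the matched exon (upper block) and 8 that end in it (lower block). Son has 50 and 49 reads, Star 42 and 32, and the 2-exon chain of Abcb1b 39 and 36. Not shown is an Abcb1b chain whose recorded end was exonic in replicate 1 and intronic in replicate 2.

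Much of the pooled share of splicing proteins came from Son. Of the 24 members of the U1 snRNP and splicing list with at least 20 spliced reads, 12 had a Prefix read, against 28.0% of all measured genes. The median share was 0.272% in the list and 0 over all measured genes. In the list 189 of 3080 spliced reads were Prefix, 6.14%, of which Son gave 100. The pooled share over all genes was 0.782%. Without Son, a split chosen after its values were seen, the list had 89 of 2968, 3.00%. Srsf2, an SR protein, had 15 of 148 and 11 of 119 reads, mostly in a chain that ran through the last intron to within 3 bases of the parent's end. Hnrnpa2b1 had 9 of 226 and 11 of 152, and Ddx5, an RNA helicase, 6 of 324 and 5 of 207. Luc7l2, a partner of U1 snRNP, had 5 reads in each library, of 14 and 10, all ending 408 bases into its last intron. Hnrnpdl had 8 of 30 and 3 of 31 and Clk2, a kinase of SR proteins, 6 of 28 and 3 of 22, both outside that list and named for their share. Among 12 measured cleavage and polyadenylation factors 3 had a Prefix read. Papola, the nuclear poly(A) polymerase, had 2 of 34 and 3 of 35, all in introns. Of the 4 measured receptors with known soluble forms from early ends, 1 had a Prefix read: Fgfr2, with 6 of 34 and 2 of 15, of which 5 and 2 ended in introns. Over all members of that list with spliced reads, 9 of 277 were Prefix, 3.25%.

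Outside the steroid and splicing lists most groups had few Prefix reads. Counts of members below stand beside 28.0% of all measured genes with a Prefix read. That share was 23.1% at 20 to 49 spliced reads and 47.8% at 500 or more. The counts were not corrected for depth, so they are not results about the lists. The cytosolic ribosomal proteins, with 37460 spliced reads, had 34 Prefix reads, 0.0908%, in 22 of 82 measured members, of which Rpl13 had the most, 4 and 1. The mitochondrial enzymes had 22 of 14008 reads in 13 of 19 members, and the lipid uptake and cholesterol list 16 of 6702 in 10 of 17. The matrix and stroma list had 9 of 2440 in 4 of 13, and the fat cell list 114 of 11992 in 7 of 13, of which Plin1 gave 85. The chromaffin list had 42 of 15467 in 6 of 16. Chgb, a granin of secretory granules, had 7 reads in each library in a single chain, recorded 984 bases apart: at the parent's own end in replicate 1 and at an exon edge in replicate 2. Pnmt, which makes adrenaline, had 11 of 211 spliced reads in replicate 1 and 3 of 448 in replicate 2, all in a chain that kept the last intron and reached the parent's end. Its difference did not pass the test between libraries (Fisher's exact test, adjusted p = 0.0832). In bulk libraries such as these, fewer cells of a type and less RNA per cell cannot be told apart.

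Among the remaining genes with many Prefix reads, Mbd3, a subunit of the NuRD chromatin complex, had 46 of 162 and 46 of 145 reads. Its leading chain, with 31 reads in each library, kept a last intron of 76 bases and ended at the parent's own end, as did a second chain with 10 and 13 reads. Meg3, an imprinted noncoding RNA, had 48 of 211 and 28 of 200, nearly all in a chain of 3 exons that kept an intron of 205 bases and ended at an annotated end of another Meg3 transcript. Fam120aos had all its spliced reads, 10 and 12, in 1 chain that ended in its last intron, and no read of either library followed the annotated parent. The 15 genes with the most Prefix reads held 19.1% of them and 5.06% of all spliced reads. At the other side, 1621 of the 2577 genes with a Prefix read had only 1.

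Recurrence followed depth. Of 3492 different intron chains, 474 were Prefix in both libraries, which held 44.6% of Prefix reads in replicate 1 and 43.0% in replicate 2. Of models with 1 read, 16.5% and 16.6% recurred, against 56.4% and 57.1% of those with 2 or more and 24 of 28 and 23 of 28 of those with 10 or more. By place, run-through models recurred in 30.4% and 31.7% of cases, intronic in 24.3% and 23.7% and exonic in 21.4% and 20.1%. Models with no annotated parent recurred in 15.7% and 17.0%. The places also differed in depth: in replicate 1, 540 of 632 exonic and 424 of 559 run-through models had 1 read. Recorded ends were identical for 326 of the shared chains and within 50 bases for 386, and more than 300 bases apart for 75. Of the identical ends, 275 lay at an exon edge or an annotated end and 51 at neither. For 45 shared chains the place itself differed between the libraries.

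Some chains recurred under another class name. In all, 27 Prefix models of replicate 1 and 23 of replicate 2 had an intron chain that the other library listed as NIC or NNC, the classes for unannotated combinations of splice sites and for unannotated splice sites. None of these had an annotated parent, which the class definitions fix in advance. A chain that starts an annotated transcript is neither an unannotated combination nor one with unannotated splice sites. By the definition of the class, such a chain is Prefix where it matches the start of a longer unannotated model. Agpat3, an acyltransferase of phospholipid synthesis, was the clearest. Its chain of 11 exons was Prefix with 40 reads in replicate 2 and NIC with 45 reads in replicate 1, and it ended at an annotated 3' end. Dus1l, a tRNA dihydrouridine synthase, had a chain of 14 exons with 17 Prefix reads in replicate 2 and 10 NNC reads in replicate 1. Cyp21a1, the steroid 21-hydroxylase, had a chain with 25 Prefix reads in replicate 1 that was Suffix with 5 reads in replicate 2. Mice also carry a Cyp21a1-like pseudogene, so the assignment of these reads is uncertain. Models with no annotated parent ended within 50 bases of an annotated 3' end for 61.0% and 54.2% of their reads.

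The test between libraries called 2 genes, and both were such class changes. Prefix and other spliced reads of a gene were set against the library by Fisher's exact test (two-sided), for every gene with at least 20 spliced reads in each library and at least 1 Prefix read. A call needed a Benjamini-Hochberg adjusted p under 0.05 over all 1023 genes, with shares 5 percentage points or more apart. The 2 calls were 0.196% of the genes tested. Agpat3 had 0 Prefix reads of 140 in replicate 1 and 41 of 186 in replicate 2 (Fisher's exact test, adjusted p = 1.35e-08). Dus1l had 0 of 40 and 17 of 46 (Fisher's exact test, adjusted p = 0.00236). A count of 0 of 140 allows a share of up to 2.14%, and 0 of 40 up to 7.5%, at a floor of 3 reads. With models that have an annotated parent only, 0 of 953 genes were called. At an unadjusted p under 0.05 there were 23 of 1023 genes. The test compares 2 libraries and not conditions.

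**Figure D5:**
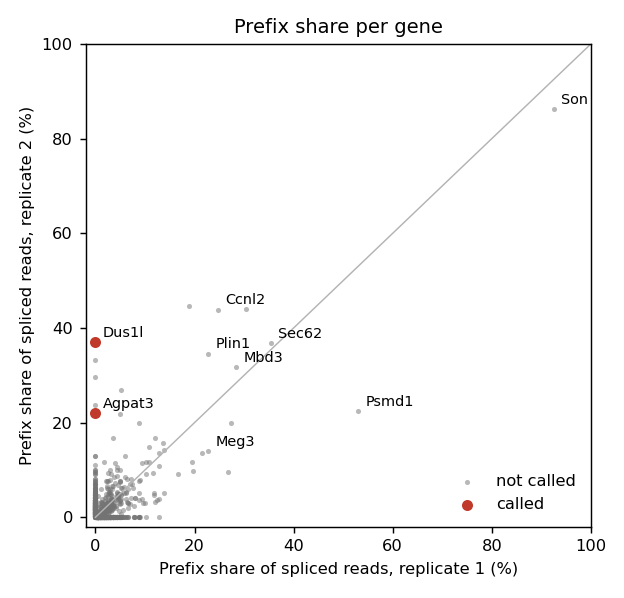
Prefix share of a gene's spliced reads (%) in replicate 1 (horizontal axis) and replicate 2 (vertical axis) for the 1023 tested genes, with the line of equality. Son lies at 92.6% and 86.2%, and the 2 called genes, Agpat3 and Dus1l, lie at 0 on the horizontal axis.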

How the data were processed

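Per the file headers, the authors deposited whole read counts per transcript model and library, with TALON classes and no normalization, on mm10 with the GENCODE M21 annotation. Aligner and program versions: not given in the sources used here. Spike-in reads (5512 and 15792) were left out, and 452489 and 463210 reads remained. Spliced reads are the classes Known, ISM, NIC and NNC.

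Intron chains from the deposited models were matched to M21 transcripts. Of several parents, the one with the most Known reads was used. Bases were read from M21 transcripts, since no genome was used. Alternatives changed tolerances, denominators, minimum reads and libraries. The Fisher test was tested on simulated data. Python 3.11.15, pandas 2.3.3 and scipy 1.17.1 were used.

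Named genes were the 15 with the most Prefix reads, the 10 with the highest share among genes with at least 50 spliced reads, leading chains in both libraries, called genes and up to 5 members per list. The no-parent chains and class changes were named after values were seen. Members and the 10 gene lists were chosen with earlier results of these data known. The bases at 1 of the leading ends are not reported here.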

Additional observations from a re-analysis of the deposited data

How the results depend on the processing

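Most Prefix models rest on 1 read, which limits shares and recurrence by gene. With models of at least 2 reads only, Prefix models held 5.77% of ISM reads (8.57% as reported) and 0.345% of endogenous reads (0.699%). Of placed Prefix reads, 67.9% then ended past the matched exon (64.2% as reported). Of exonic ends at least 20 bases inside, 57.0% of reads were followed by A (43.4%). Over exonic and run-through models, a hexamer was found for 44.8% of reads with a readable end (38.3%). Of Prefix reads, 71.7% recurred (43.8%). With the Both subtype added, the first 2 shares were 15.8% and 1.28%. Spike-ins in the denominator gave 0.683% and spliced classes alone 0.782%. Past the matched exon, ends strictly inside the next intron were 31.5%, and over all Prefix reads the share was 55.9%. A-rich ends were 48.1% at 10 A or more, 12.2% for a run of 6 A and 25.4% counted as models. AATAAA alone gave 32.2%. Recurrence was 36.9% with ends within 50 bases, 36.2% within 10 bases, 23.9% counted as models and 47.9% with the chain in any class. The 2 called genes became 0 with annotated parents only, because nearly all their Prefix reads are in models without one; the other 4 settings of that test gave 2. The median share over genes was 0 under each setting. The settings on an annotated parent, the end inside the intron, all Prefix reads and any class were chosen after seeing the data. No paired analysis was possible because there is only 1 group.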
